A study of Mus musculus with 8 samples.

Results

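Sulfate and glucuronide conjugates of isoflavones were described as neutral masses in a metabolite profile of mouse faeces. The masses were chosen by formula: a row of the deposited table belonged to the set when its mass lay within 3 ppm of 1 of 16 conjugate formulas, or of the formula less one proton. The rule found 17 of the 2429 masses in the table, and they matched 13 of the 16 formulas. The formulas without a row were those of O-desmethylangolensin sulfate, daidzein sulfoglucuronide and equol glucuronide. The formula list was drawn up with results of the comparison of treated with untreated faeces in view. That comparison is therefore given for these masses as a description, with no p-value.

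The study measured 8 samples of fresh faeces from age-matched female C57BL/6 mice, an inbred laboratory strain. The 4 untreated samples came from mice that had received no antibiotic, and the 4 streptomycin samples date from 24 h after mice were gavaged with 20 mg of this aminoglycoside antibiotic. The design text has faeces taken before and after dosing, but the labels do not tie a sample to a mouse, so samples were treated as separate. Nothing says how many mice or cages gave the samples of a group, and spreads and p-values therefore measure only the differences between these samples. Each extract was infused without chromatography into an FT-ICR (ion cyclotron resonance) instrument, which separates compounds by mass alone. Every sample was acquired 2 times in each ion mode, and a sample value is the mean of its 2 acquisitions in the table, with 0 where a mass was not listed.

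Isoflavones are plant phenols that are abundant in soy, a common component of rodent chow, where most are bound to glucose or malonylglucose. Gut bacteria and intestinal enzymes release the free forms, daidzein, genistein and glycitein, and further bacterial reduction gives dihydrodaidzein, equol and O-desmethylangolensin. Sulfotransferases of the intestine and liver add sulfate to a free hydroxyl, UDP-glucuronosyltransferases add glucuronic acid, and the conjugates reach the gut lumen in bile and by efflux from enterocytes, where bacterial sulfatases and glucuronidases can remove the added group. Genistein carries one more hydroxyl than daidzein, formononetin is the methyl ether of daidzein, biochanin A is the methyl ether of genistein, and glycitein is a methoxylated daidzein.

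A mass gives a formula and not a structure. The formula of genistein sulfate is also that of apigenin sulfate, glycitein and biochanin A share 1 formula, and dihydrogenistein shares one with naringenin. Names below stand for formulas, and whether the host or another source made a conjugate was not measured. The median absolute mass error of the 17 rows was 0.286 ppm and the largest was -1.25 ppm, against a stated accuracy of 2 ppm. The 4 most intense rows lay between -1.25 and -0.67 ppm, and the other 13 lay between -0.12 and 0.60 ppm. No other row was close to the 3 ppm limit: the nearest outside it was 25.5 ppm away, at 352.0163 Da.

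All 17 conjugate masses were listed in the streptomycin samples and were at 0 in every acquisition of the 4 untreated samples. They comprised 10 sulfate rows, 2 disulfate rows, 3 glucuronide rows and 2 sulfoglucuronide rows. Over the whole table, 47.3% of masses stood in streptomycin samples but not in any untreated one. In limma's fit over all masses, with Benjamini-Hochberg adjustment at 0.05, all 17 were called higher in the streptomycin samples, where 52.7% of all masses were. Since this contrast was in view when the formulas were chosen, nothing is read from these counts. The detection filter of 3 samples in a group was passed by all 2429 masses, so it selected nothing. The 17 passed it through the streptomycin samples alone. A 0 means that the mass was not listed, and with no counts behind it no fold change is given.

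The most intense conjugates were the monosulfates of genistein and daidzein. Genistein sulfate, C15H10O8S at 350.0092 Da, had relative intensities of 1354, 956, 1355 and 754 in streptomycin samples 1 to 4, a mean of 1105 ± 300.0 (SD, n = 4). Samples 1 and 3 were high and sample 4 was low. Daidzein sulfate, C15H10O7S at 334.0145 Da, had 907, 894, 906 and 942, a mean of 912 ± 20.7 (SD, n = 4). Its 4 samples lay close together, with a coefficient of variation of 2.27%, against 27.2% for genistein sulfate. With rows of the same ion taken once, these masses ranked 2 and 5 by mean intensity in the streptomycin samples, among the 2319 ions of the whole table. Intensities of different compounds depend on how well each ionises, so they are given side by side and not as amounts, and 0 pairs of conjugates were tested against each other.

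**Figure D1:**
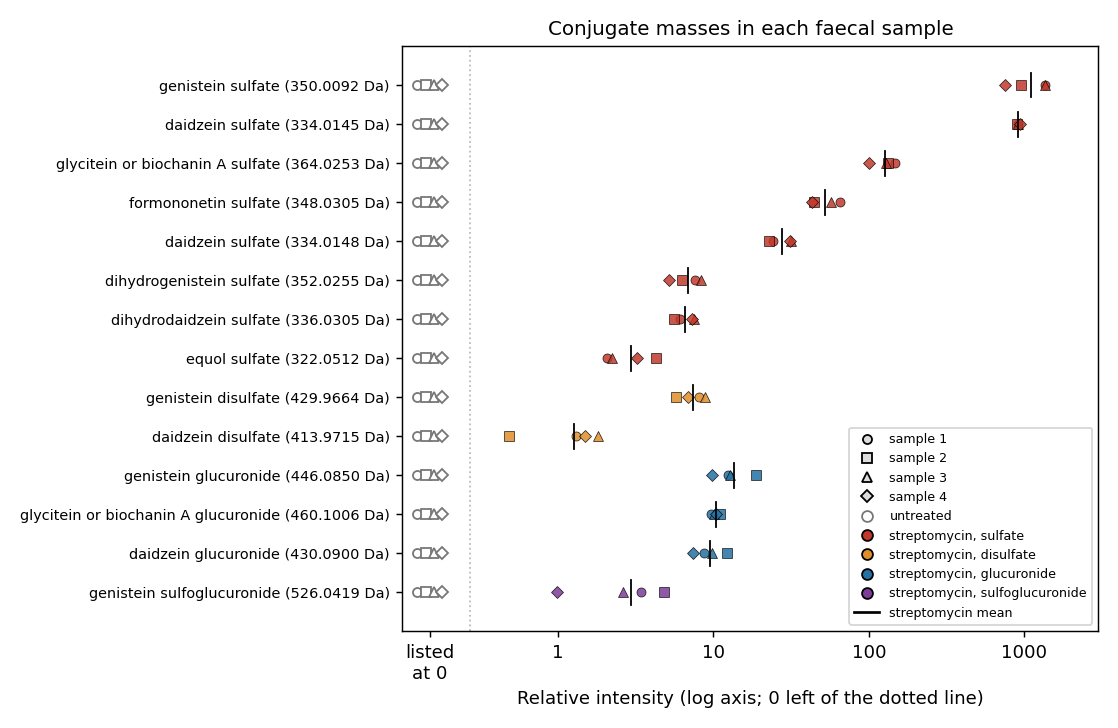
Relative intensity on a log axis of the 14 conjugate rows at their neutral formula, where marker shapes are samples 1 to 4, open grey markers are untreated samples, colours are conjugate classes in streptomycin samples and vertical bars are streptomycin means. Every untreated sample is listed at 0, and the streptomycin means run from 1.28 for daidzein disulfate to 1105 for genistein sulfate.

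The methylated or methoxylated sulfates were the next most intense. The mass of glycitein or biochanin A sulfate, C16H12O8S at 364.0253 Da, had 146, 132, 129 and 99.9 in streptomycin samples 1 to 4, a mean of 127 ± 19.5 (SD, n = 4). Formononetin sulfate, C16H12O7S at 348.0305 Da, had 65.4, 44.2, 56.7 and 43.3, a mean of 52.4 ± 10.6 (SD, n = 4). Both were highest in sample 1 and lowest in sample 4. A further row at the formula of daidzein sulfate, 334.0148 Da, had 24.3, 22.6, 31.8 and 31.0, a mean of 27.4 ± 4.64 (SD, n = 4). It was higher in samples 3 and 4 than in samples 1 and 2.

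Sulfates of the reduced isoflavones were also listed in the streptomycin samples. Dihydrodaidzein sulfate, C15H12O7S at 336.0305 Da, had 6.08, 5.57, 7.55 and 7.24, a mean of 6.61 ± 0.937 (SD, n = 4). Dihydrogenistein sulfate, C15H12O8S at 352.0255 Da, had 7.61, 6.28, 8.30 and 5.22, a mean of 6.85 ± 1.37 (SD, n = 4). Both were highest in sample 3. Equol sulfate, C15H14O6S at 322.0512 Da, had 2.07, 4.26, 2.23 and 3.21, a mean of 2.95 ± 1.01 (SD, n = 4), and was the only sulfate that was highest in sample 2.

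Disulfates carry a sulfate on each of a pair of hydroxyls. Genistein disulfate, C15H10O11S2 at 429.9664 Da, had 8.05, 5.78, 8.79 and 6.87 in streptomycin samples 1 to 4, a mean of 7.37 ± 1.33 (SD, n = 4). Daidzein disulfate, C15H10O10S2 at 413.9715 Da, had 1.31, 0.484, 1.82 and 1.50, a mean of 1.28 ± 0.568 (SD, n = 4). Both were highest in sample 3 and lowest in sample 2, where 1 of the 2 acquisitions did not list daidzein disulfate.

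Glucuronides were listed for genistein, daidzein and glycitein or biochanin A. Genistein glucuronide, C21H18O11 at 446.0850 Da, had 12.4, 18.8, 12.9 and 9.81, a mean of 13.5 ± 3.82 (SD, n = 4). The mass of glycitein or biochanin A glucuronide, C22H20O11 at 460.1006 Da, had 9.66, 11.1, 10.1 and 10.4, a mean of 10.3 ± 0.603 (SD, n = 4). Daidzein glucuronide, C21H18O10 at 430.0900 Da, had 8.69, 12.2, 9.75 and 7.37, a mean of 9.51 ± 2.06 (SD, n = 4). All 3 were highest in sample 2, the sample in which both disulfates were lowest. Genistein sulfoglucuronide, C21H18O14S at 526.0419 Da, carries a sulfate and a glucuronic acid, and had 3.44, 4.83, 2.62 and 0.988, a mean of 2.97 ± 1.61 (SD, n = 4). It too was highest in sample 2, and it varied most of the 14 rows at a neutral formula, with a coefficient of variation of 54.1% against a median of 20.1%.

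The streptomycin samples thus differed in how many ions of a class were highest in them. Of the 10 sulfate and disulfate ions, 6 were highest in sample 3, 2 in sample 1, 1 in sample 2 and 1 in sample 4. Part of this order rests on near ties, as genistein sulfate was at 1354 in sample 1 and 1355 in sample 3. The summed sulfates were higher in sample 1 (2512) than in sample 3 (2497). Of the 4 glucuronide and sulfoglucuronide ions, 4 were highest in sample 2 and 3 were lowest in sample 4. These ions come from the same 4 extracts and are not independent, so no test was made. The acetylglucosides acetyldaidzin at 458.1215 Da and acetylgenistin at 474.1162 Da were also highest in sample 2, with 5.90 and 6.79, although a further acetylgenistin row at 474.1163 Da was highest in sample 1, with 2.67 against 2.23 in sample 2. By contrast, the malonylglucosides malonyldaidzin and malonylgenistin were lowest in sample 2, with 18.4 and 23.6.

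**Figure D2:**
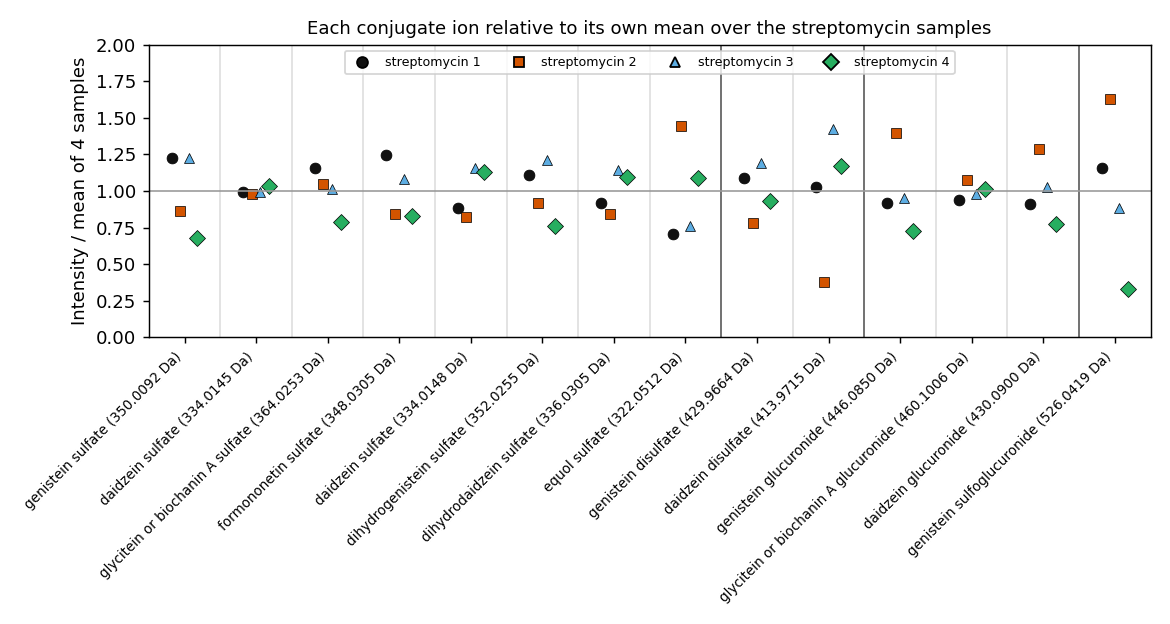
Intensity of each of the 14 conjugate ions in each streptomycin sample divided by the mean of its 4 samples, with markers for samples 1 to 4 and dark vertical lines between sulfates, disulfates, glucuronides and the sulfoglucuronide. Sample 2 (orange squares) is highest for all 4 glucuronide and sulfoglucuronide ions and lowest for both disulfates.

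Ratios between conjugates of the same isoflavone varied among the samples. Intensity of daidzein sulfate over that of daidzein glucuronide was 104, 73.1, 92.9 and 128 in streptomycin samples 1 to 4, and of genistein sulfate over genistein glucuronide 109, 50.7, 105 and 76.8. For the glycitein or biochanin A formulas the same ratio was 15.1, 11.9, 12.7 and 9.57. Sulfate over glucuronide was lowest in sample 2 for daidzein and genistein, but lowest in sample 4 for the glycitein or biochanin A formulas. Genistein over daidzein was 1.49, 1.07, 1.50 and 0.800 for the sulfates and 1.43, 1.54, 1.32 and 1.33 for the glucuronides. The highest of the 4 was 1.87 times the lowest for the sulfates and 1.17 times for the glucuronides. Genistein sulfoglucuronide over genistein glucuronide was 0.277, 0.256, 0.204 and 0.101, lowest in sample 4.

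Several rows held the same ion under different neutral masses. The row of genistein sulfate at 350.0092 Da, its row less one proton at 349.0020 Da and a row at 314.0326 Da, lower by hydrogen chloride, had identical intensities in all 8 streptomycin acquisitions. For daidzein sulfate the rows at 334.0145, 333.0072 and 298.0378 Da were identical in the 6 acquisitions that listed them together, and for genistein sulfoglucuronide those at 526.0419, 525.0346 and 490.0652 Da were identical in 6. Rows at such spacings with equal intensities were taken as 1 ion. The row at 333.0072 Da had 907, 453, 453 and 942, since 1 acquisition each of samples 2 and 3 did not list it, and the row at 525.0346 Da had 3.44, 4.83, 2.62 and 0. Merged in this way, the 17 rows held 14 ions, and 20 rows of the table belonged to them. Neither the ion mode nor the ion form of a row is given in the table.

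Isotope rows bore on the formulas without using the contrast between groups. A row at the spacing of 34S, the heavy isotope that marks a sulfur atom, was listed for 3 of the 10 matched sulfur formulas. At 336.0106 Da it held 3.71, 3.70, 3.79 and 3.43% of the daidzein sulfate row in streptomycin samples 1 to 4, a mean of 3.66% ± 0.155 (SD, n = 4). At 352.0056 Da it held 3.31, 3.61, 3.20 and 3.40% of the genistein sulfate row, a mean of 3.38% ± 0.173 (SD, n = 4). At 366.0213 Da it held 3.97, 4.09, 4.07 and 4.17% of the glycitein or biochanin A sulfate row, a mean of 4.07% ± 0.0818 (SD, n = 4). All 12 values were below the 4.47% computed for 1 sulfur and far below the 32% computed for a chloride adduct. The mass errors against the 34S form were 0.24, 0.47 and 0.59 ppm.

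**Figure D3:**
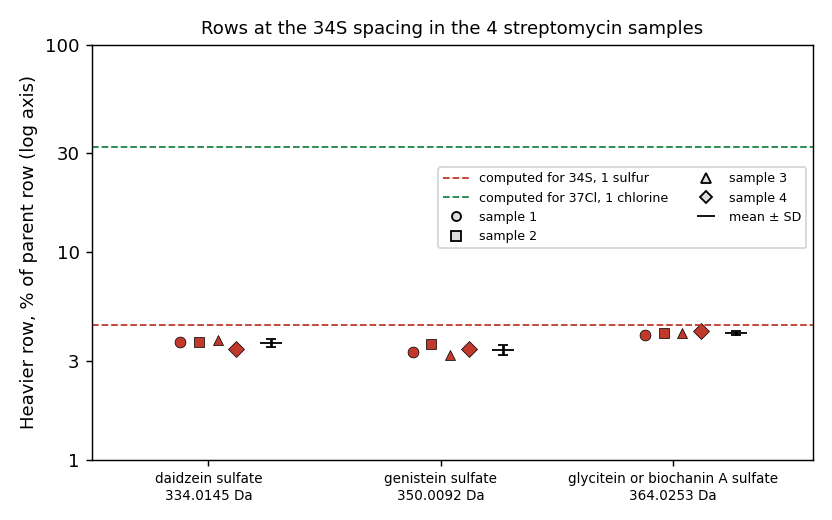
Intensity of the row at the 34S spacing as a percentage of its parent row on a log axis, for 3 sulfates in the 4 streptomycin samples, with the mean and SD beside the points and dashed lines at the shares computed for 34S and 37Cl. The points lie between 3.20% and 4.17%, under the 34S line at 4.47% and well under the 37Cl line at 32%.

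The remaining sulfur formulas had no such row. For formononetin sulfate the computed 34S intensity was 2.34, and 57.5% of the 1783 rows listed in streptomycin samples were below that level, so an intensity of that size was within the range of the table. For the other 6 parents the computed intensity was 0.114 to 0.659. Rows for a pair of 13C atoms and for 18O were listed for genistein sulfate, at 0.821% and 0.858% of the parent against 1.23% and 1.64% computed. They were also listed for glycitein or biochanin A sulfate, at 1.05% and 0.943% against 1.40% and 1.64% computed. For daidzein sulfate neither row was listed, although the computed intensities were 11.2 and 13.1. The rows listed for genistein sulfate averaged 9.01 and 9.43 in the streptomycin samples. The 18O row of genistein sulfate lay 1.75 ppm from its computed mass. A row with a single 13C was listed for 0 of the formulas, although the computed intensity reached 179 for genistein sulfate; whether such rows were removed before deposit was not tested.

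The conjugates made up a large share of the intensity of the streptomycin samples. With each conjugate ion taken once, their summed intensity was 2556, 2119, 2542 and 1922 in samples 1 to 4, a mean of 2285 ± 315 (SD, n = 4), and 0 in the untreated samples. This was 10.2% ± 1.21 (SD, n = 4) of the summed intensity of all rows, which holds some of these ions more than once. With each ion taken once in both sums, the share was 13.6% ± 1.75 (SD, n = 4). Genistein and daidzein sulfate made up 89.4% ± 0.780 of the summed intensity of the conjugates. By class, the sums were 2240 ± 314 for sulfates, 33.3 ± 6.27 for glucuronides, 8.65 ± 1.84 for disulfates and 2.97 ± 1.61 for the sulfoglucuronide. When all 20 rows that hold these ions were added up, they came to 26.3% ± 3.44 of the summed intensity.

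The direction of the difference in total intensity between the groups changed with how often these ions were counted. Over all rows, untreated samples summed to 19918 ± 161 and streptomycin samples to 22267 ± 693 (SD, n = 4 each), and the groups did not overlap (exact two-sided permutation test, p = 0.0286, the smallest that 4 against 4 samples allow). With each ion of the table taken once, it was 18538 ± 67.2 and 16754 ± 202, lower in streptomycin samples by the same test (exact p = 0.0286). With only the conjugate ions taken once and all other rows as deposited, it was 18675 ± 78.6 in streptomycin samples, below every untreated sample. Without the rows of conjugate ions the streptomycin samples summed to 16390 ± 310 (SD, n = 4), against 19918 ± 161 in untreated samples. The rule for merging rows and these totals were chosen after the data were seen. Both tested totals hold the conjugates, which were listed with this contrast in view, so the p-values only describe these sums.

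**Figure D4:**
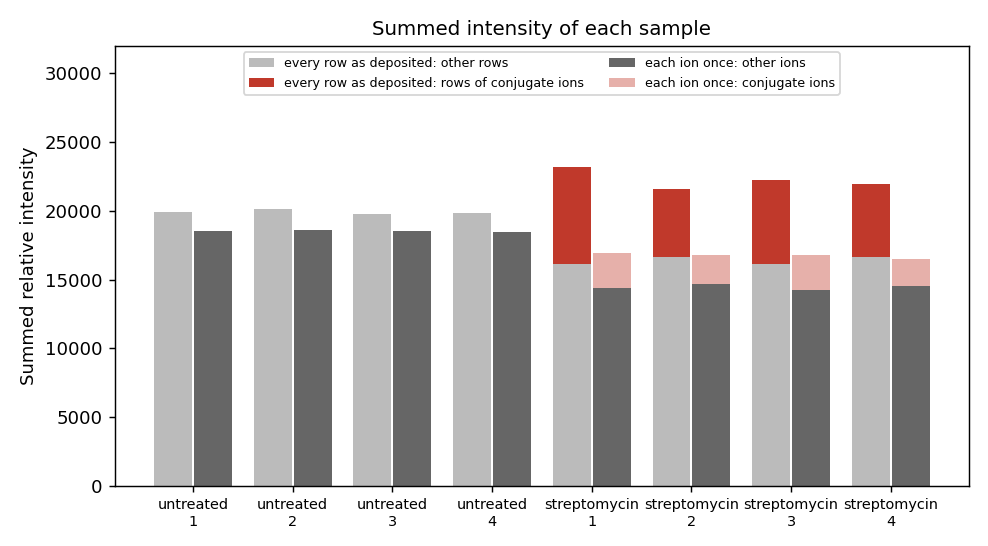
Summed relative intensity of each sample over every row as deposited (left bar of each pair) and with each ion taken once (right bar), where red and pink are the rows and ions of the conjugates. Streptomycin samples stand above the untreated ones in the left bars (21600 to 23221 against 19761 to 20140) and below them in the right bars.

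The repeated rows also showed in single acquisitions. In streptomycin sample 2 the summed intensity was 22455 in the first acquisition and 20745 in the second, and in sample 3 it was 21465 and 23073. The rows at 333.0072 and 298.0378 Da held 906 each in the first acquisition of sample 2 and 0 in the second, and 0 and 905 in those of sample 3. Without the rows of conjugate ions the sums were 16563 and 16743 in sample 2 and 16120 and 16091 in sample 3. The acquisitions of streptomycin sample 1 differed by a median of 0.0132% over all rows, against 2.42 to 3.64% in the other streptomycin samples and 3.24 to 5.80% in untreated samples. Whether the acquisitions of streptomycin sample 1 are independent of each other was not tested.

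Unconjugated isoflavones were described from the same table for context. Of 8 rows at aglycone formulas, 7 were called higher in streptomycin samples and 1 did not pass, and all 11 glucoside rows were listed in streptomycin samples only, beside 52.7% of all masses called higher and 47.3% listed in that group alone. The more intense daidzein row, at 254.0580 Da, averaged 24.3 ± 10.5 (SD, n = 4) after streptomycin, with every untreated sample at 0. Genistein at 270.0530 Da averaged 32.1 ± 23.9 after streptomycin and was at 0 in sample 2. A further genistein row, at 270.0529 Da, had 17.1, 18.8, 21.8 and 20.8 in streptomycin samples 1 to 4. Its mean was 19.6 ± 2.10 (SD, n = 4), with every untreated sample at 0, so the genistein formula was listed in sample 2 as well. Among glucosides, daidzin at 416.1107 Da averaged 8.65 ± 1.66 and genistin at 432.1057 Da 6.16 ± 1.15. Malonylglycitin at 532.1217 Da averaged 6.49 ± 1.74 and glycitin at 446.1214 Da 2.17 ± 1.63 (SD, n = 4). The row of glycitein or biochanin A at 284.0685 Da was listed in both groups, averaging 6.08 ± 2.18 without and 9.47 ± 2.47 with streptomycin (SD, n = 4). Their difference of 0.70 ± 0.33 (SE) on the log2 scale did not pass limma's test over all masses (adjusted p = 0.0790). The difference did pass with limma after scaling by the median ratio (adjusted p = 0.0154) or with a replicate block (adjusted p = 0.0372). It did not pass with limma after scaling by total intensity (adjusted p = 0.161) or to the calibrants (adjusted p = 0.408). A further row of that formula, 284.0686 Da, was at 1.36 ± 0.293 and 15.4 ± 12.9 (limma, adjusted p = 0.000875). In streptomycin samples 1 to 4 this row had 9.87, 4.94, 12.6 and 34.2, so sample 4 weighed most in the mean. These lists too were chosen with earlier results of the data known, so the p-values only describe the rows. The sulfate and glucuronide masses of glycitein or biochanin A were at 0 in all untreated samples.

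Free dihydrodaidzein was listed in the untreated samples, whereas its sulfate was listed in the streptomycin samples. Dihydrodaidzein at 256.0736 Da had 1.79, 3.46, 11.2 and 7.90 in untreated samples 1 to 4 and 0 in the streptomycin samples. O-desmethylangolensin at 258.0893 Da had 2.00, 2.91, 6.20 and 6.79 in untreated samples and was at 0 in streptomycin samples, and its sulfate had no row. Dihydrogenistein had a row in each group: the untreated samples alone held 272.0685 Da, with 1.15 ± 0.190, and the streptomycin samples alone held 272.0687 Da, with 0.840 ± 0.333 (SD, n = 4). Of the 4 rows of reduced products, 3 were called lower and 1 higher in streptomycin samples, where 36.7% of all masses were called lower and 52.7% higher.

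**Figure D5:**
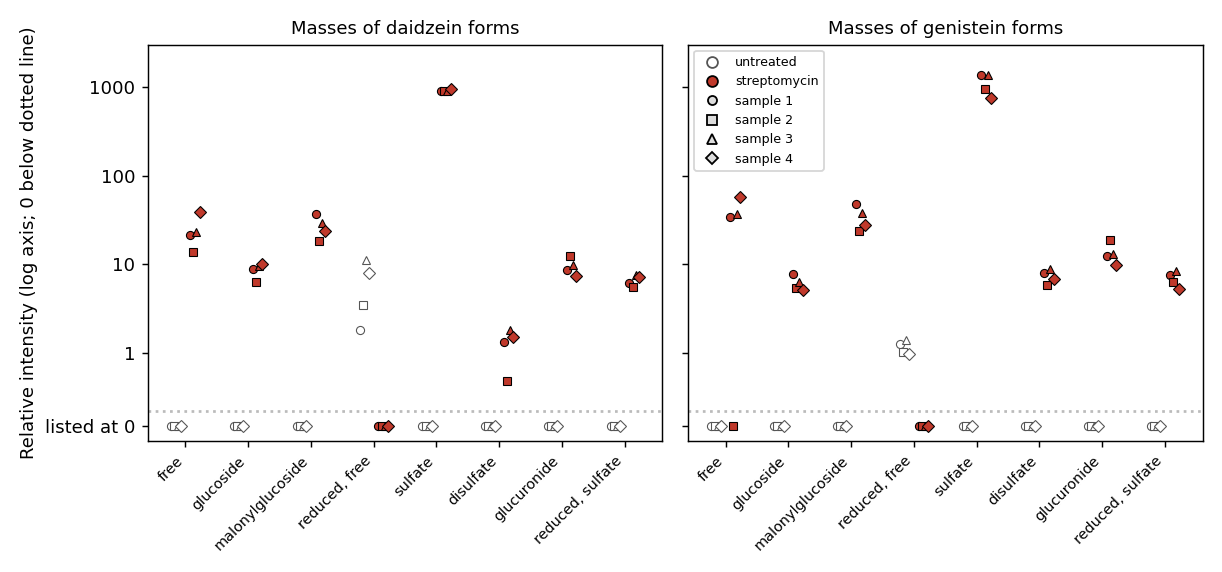
Relative intensity on a log axis of the forms of daidzein (left) and genistein (right) in untreated (open) and streptomycin (red) samples, using for each form the row of the highest group mean; free genistein is the row at 270.0530 Da, which was at 0 in streptomycin sample 2. Untreated samples are above 0 only for the free reduced forms, and streptomycin samples are at 0 for those rows. Rows not shown include genistein at 270.0529 Da and dihydrogenistein at 272.0687 Da, each listed in all streptomycin samples and in no untreated sample.

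Sulfates and glucuronides of other plant phenols were matched at 4 of 19 formulas, and each row was listed in streptomycin samples only, as were 47.3% of all masses. The mass of kaempferol or luteolin sulfate at 366.0047 Da was at 23.8 ± 5.80, tricin sulfate at 410.0308 Da at 9.60 ± 2.16, ferulic acid sulfate at 274.0150 Da at 3.18 ± 0.534 and tricin glucuronide at 506.1061 Da at 1.97 ± 0.394 (SD, n = 4).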

How the data were processed

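Acetonitrile extracts of faeces were infused in both ion modes over m/z 150 to 1100, with 200 scans per spectrum and internal calibrants, per the labels' protocols. The file deposited by the authors holds linear relative intensities for each neutral mass in 16 acquisition columns. The reference of these intensities, and the picking, alignment and conversion of peaks to neutral masses, are not given in the sources used here. Counts of ions, and so depth, are unknown, and 4 samples per group limit the precision.

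The conjugates and the other lists were chosen with earlier results of these data known. Every conjugate row was named, and of the other lists the row of the highest group mean per formula, with further rows where a comparison needed them. Formulas were matched within 3 ppm to the neutral formula or the formula less one proton (pyteomics 5.0.1). All 2429 masses were fitted with limma 3.58.1 in R 4.3.3 (lmFit and eBayes, no block) on log2 of the mean of the acquisitions, with 0 set to 0.0738, the lowest sample value. A first run set 0 to the lowest single acquisition value, 0.148, which is the literal wording of the planned design; it was replaced, after its results were seen, to follow the processing described earlier for these data, and both are reported. P-values were adjusted by the Benjamini-Hochberg method at 0.05. Rows were taken as 1 ion when they lay at the spacing of a proton, hydrogen chloride, chloride, sodium or potassium and had intensities equal within 0.5%, with at most 2 acquisitions listing only 1 of them. Isotope shares were computed from the formulas. The fit was tested on simulated data modelled on the masses listed in all 8 samples. That test does not cover masses at 0 in a whole group, as the conjugates were in untreated samples. Errors are SDs over samples. Tables were made with Python 3.11.15, numpy 2.4.6, pandas 2.3.3 and scipy 1.17.1, and plots with matplotlib 3.10.9. Alternatives covered the value for 0, detection filters, scaling, acquisitions, replicates, the test and the tolerances.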

Additional observations from a re-analysis of the deposited data

Results flagged for a closer look

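Among 66 groups of 4 values examined, 4 had a sample far from the other 3, as judged by its gap to the nearest sample divided by the range of the group, against Dixon's critical value. Chance flags about 1 in 20 groups. Genistein disulfate over genistein sulfate had a ratio of 0.00594, 0.00604, 0.00648 and 0.00911 in streptomycin samples 1 to 4, with sample 4 high (gap over range 0.8294). Formononetin at 268.0737 Da had 3.87, 1.44, 4.00 and 3.70 in the streptomycin samples, with sample 2 low (0.883). Dihydrogenistein at 272.0687 Da had 1.01, 0.340, 1.01 and 1.00, with sample 2 low (0.983). Formononetin at 268.0737 Da and dihydrogenistein at 272.0687 Da were each listed in 7 acquisitions, so not in every streptomycin acquisition. An acquisition without the mass entered the mean of its sample as 0. Whether this made sample 2 low was not tested. Glycitein or biochanin A at 284.0686 Da had 0.922, 1.54, 1.44 and 1.53 in the untreated samples, with sample 1 low (0.831). No intensity of a conjugate row itself was far from the others by this measure.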

How the results depend on the processing

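The 17 conjugate masses called higher numbered 14 to 17 under 27 alternatives, beside 52.7% of all masses in the main fit. Counts under 17 came from smaller sets and not from lost calls. They were 16 for masses listed in all 4 samples of a group and 15 within 1 ppm. They were 14 at the neutral formula only or with each ion counted once. With untreated samples at 0 this call had little room to change, so the counts are no support. Over masses listed in both groups no conjugate could be fitted, for the same reason. Over all masses, 1281 were called higher and 891 lower. Setting 0 to the lowest acquisition value, the first choice made, gave 1274 and 899. Only masses listed in both groups, fewer by construction, gave 116 and 229. Leaving out each sample gave 1263 to 1280 higher and 870 to 914 lower. Same-numbered samples deviated together with r of 0.0426, 0.0301, 0.107 and 0.124 over 539 masses. Samples with unlike numbers had r from -0.191 to 0.124. Whether the numbers mark a pairing was not tested. A replicate block gave 1278 higher, 893 lower and 17 conjugates. The block gave an adjusted p of 0.0372 for 284.0685 Da, against 0.161 with total and 0.408 with calibrant scaling (limma). The conjugates' share of intensity, 10.2%, was 18.3% with every row counted, 13.6% with each ion taken once in both sums, and 9.85 to 10.7% with a sample left out. The total intensity difference of 2348 turned to -1784 with each ion taken once at 0.1, 0.5 or 1% and to -1757 at 5%. The merging, the lowest acquisition value and these totals were chosen after seeing the data. Direct infusion cannot separate isomers, and signal over background was not analysed here.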
